A study of Mus musculus with 6 samples.

Results

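The potassium channel genes of mouse glomeruli are described here, taken as every row of the deposited expression table whose gene symbol starts with Kcn. There were 97 such rows among 24035 rows with a gene symbol, and 60 of them were kept because their RPKM, averaged across all 6 libraries, reached 0.1. RPKM is the number of reads per kilobase of gene, scaled to the counted reads of the library, so levels can be set against each other between genes. The family was chosen by the RPKM of Kcng2, which is much lower in knockouts, so Kcng2 is given as a description with no test. The other members entered by their symbol and by a mean over both groups together, and their differences were tested.

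The knockout group has 3 libraries of isolated glomeruli from Podocin-Cre Klf4 fl/fl mice, and the control group has 3 from Klf4 fl/fl mice without the Cre. All mice were FVB/N, floxed Klf4 alleles were common to both groups, and the labels give no age. The podocin promoter drives Cre in podocytes, so the other cells of the glomerulus keep their Klf4 alleles, and no group carried Cre alone. Whether the libraries of a group are different animals is not stated in the labels, and p-values therefore measure only library-to-library spread, which may be technical. Glomeruli were caught with a magnet after perfusion with iron oxide particles.

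Potassium channels let potassium ions cross membranes and so set the resting voltage of cells. Voltage-gated (Kv), calcium- or sodium-activated, inward rectifier (Kir) and two-pore-domain (K2P) families each build a pore from alpha subunits, and accessory beta subunits change how the pore opens. In the kidney they are best known from the tubule, where they recycle potassium for sodium transport and secrete it in the distal nephron. Klf4, a zinc-finger transcription factor, binds GC-rich elements of the CACCC type.

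Counted reads per library ranged from 38936993 to 58272424, and 1 read in a gene of 1 kb was worth 0.0172 to 0.0257 RPKM. In knockouts the summed RPKM of podocyte markers was 1249 to 2676, against 3601 to 6605 in controls, and 8 of 15 markers were lower and 0 higher. Leukocyte markers summed to 572 to 1280 RPKM in knockouts and 82.8 to 84.0 RPKM in controls, with 11 of 15 higher and 0 lower, and Adgre1 is not among the rows used here. Parietal epithelial markers had sums of 230 to 443 RPKM in knockouts and 71.8 to 83.8 RPKM in controls, with 6 of 9 higher. Endothelial marker sums were 1736 to 2751 RPKM in knockouts and 2584 to 3737 RPKM in controls, with 0 of 11 higher or lower. Mesangial and smooth muscle sums were 1331 to 1802 RPKM in knockouts and 1477 to 2085 RPKM in controls, with 2 of 13 higher and 2 lower. Proximal tubule sums overlapped, at 4217 to 10526 RPKM in knockouts and 4485 to 11660 RPKM in controls, with 1 of 13 higher. Distal nephron sums (loop, distal tubule, collecting duct) overlapped too, at 1094 to 2878 RPKM in knockouts and 485 to 1365 RPKM in controls, with 2 of 15 higher. The median log2 change, knockout minus control, was 1.37 over the distal nephron markers and -0.0073 over the proximal tubule markers. No marker was at 0 in all libraries, and Ren1 was at 0 in all controls. In whole glomeruli, fewer cells of a type and less RNA per cell cannot be told apart.

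A few inward rectifiers held a large share of the family's expression. Of the 60 members, 6 had a mean of at least 10 RPKM, 25 had at least 1 RPKM and 35 lay under 1 RPKM. Kcnj16, Kcnj15 and Kcnj1 stood first, and together they made up 57.1% to 64.8% of the family's summed RPKM in knockouts and 39.7% to 55.5% in controls. That summed RPKM was 366, 437 and 271 in knockout replicates 1 to 3 and 240, 189 and 280 in control replicates 1 to 3, so the groups overlapped.

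Of the 59 tested members, 7 were higher and 4 lower in knockouts by limma (adjusted p under 0.05 over all 15913 genes tested), and 48 did not pass. The share of members higher was 11.9%, against 9.6% of all genes tested. Lower members made up 6.78%, against 3.22% of all genes. One of the 4 lower members, Kcnj12, passed the 0.1 RPKM minimum through its control level alone, which leaves 3 with both group means above it, so nothing is read from that share. Positive log2 changes were found in 38 members and negative ones in 21. The median log2 change was 0.28 over these 59 members and 0.10 over all genes tested, and both were below 0 under quantile normalization (-0.027 and -0.05). The groups did not overlap for 19 of the 59 members with higher knockouts (32.2%) and for 7 with lower knockouts (11.9%), and in 2 of each 1 group mean was under 0.1 RPKM. Among all genes tested the same held for 24.2% and 11%.

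These counts changed with single libraries. Members higher numbered 0 without knockout replicate 2 or control replicate 2, 1 without control replicate 1, and 4 without knockout replicate 1 or control replicate 3. Without knockout replicate 3, Kcnj16, Kcnj1, Kcnq1 and Kcne1 newly passed as higher, while Kcnh2, Kcnab2 and Kcne3, among others, no longer passed. Lower members other than Kcng2 numbered 1 without knockout replicate 1 or 2 or control replicate 2, and 2 without control replicate 3. Numbers of all genes called higher and lower also changed with single libraries, with ranges given in the closing section. Nothing is read about the members from these changes. Under quantile normalization 2 members were higher and 4 lower other than Kcng2, and over all genes 943 were higher and 873 lower in place of 1528 and 512. Log2 changes below are knockout minus control on the log2(RPKM + 0.5) scale, where changes of weakly expressed genes come out too small. Folds are ratios of the mean RPKM of the groups.

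**Figure D1:**
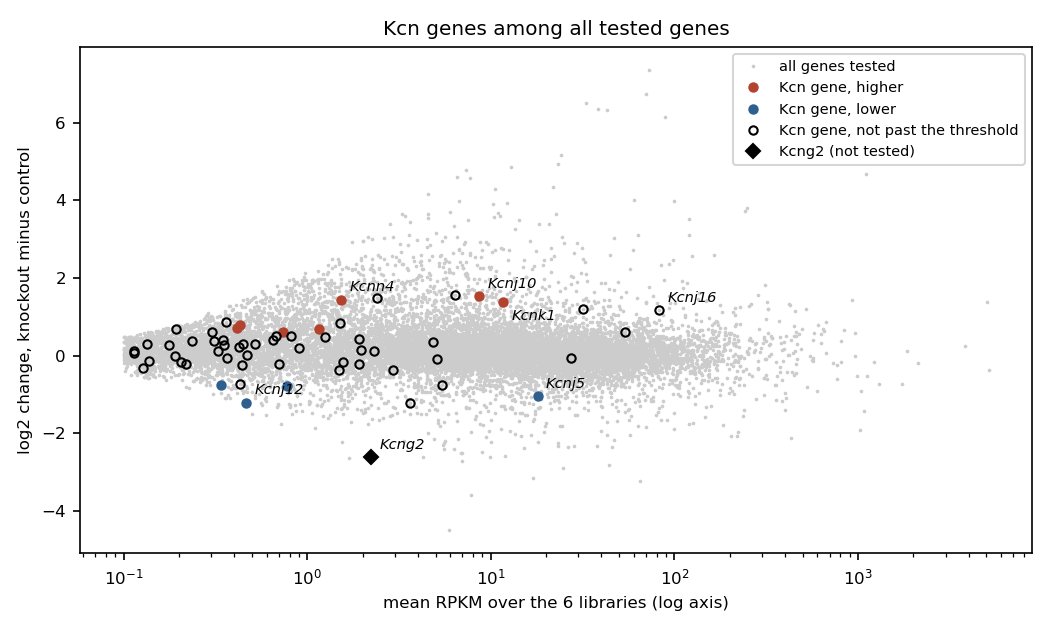
Mean level over the 6 libraries (x axis, RPKM, log axis) against the log2 change, knockout minus control (y axis, log2(RPKM + 0.5) scale), for 15913 tested genes (grey) and the Kcn genes. The 7 higher members (red) and 4 lower ones (blue) lie among the other genes at their levels, and Kcng2 (black diamond) lies at -2.62.

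Kcng2 encodes Kv6.2, a modifier subunit that forms no working channel alone and assembles with the pores of other Kv subunits. It stood at 0.181, 0.201 and 0.360 RPKM in knockout replicates 1 to 3 and at 5.89, 3.82 and 2.92 RPKM in control replicates 1 to 3. The highest knockout lay well under the lowest control. The means were 0.247 ± 0.0982 RPKM in knockouts and 4.21 ± 1.52 RPKM in controls (SD, n = 3 each), a 17.1-fold difference and a log2 change of -2.62. The reads behind these values numbered 23, 23 and 59 in knockouts and 674, 565 and 320 in controls. The annotation places exons of D330025C20Rik opposite those of Kcng2 on chromosome 18, and how strand was counted is not given in the sources used here. The other modifier subunits kept, Kcnf1 and Kcns3, changed by -0.16 and 0.51 on the log2 scale, neither past the threshold.

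**Figure D2:**
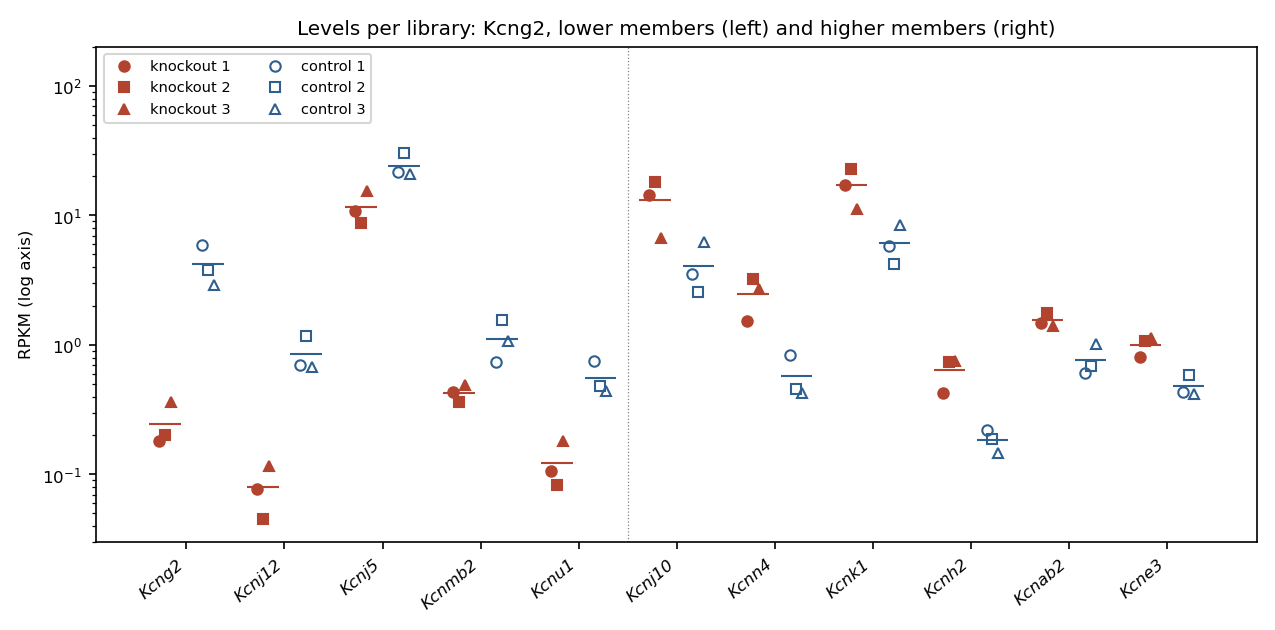
RPKM (log axis) per library for Kcng2, the 4 lower members and 6 of the 7 higher members, with knockouts filled on the left of each gene and controls open on the right. Horizontal lines are group means, and for each of these genes the groups do not overlap.

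Kcnj12 (chromosome 11, 61022564 to 61071131), which encodes the strong inward rectifier Kir2.2 of heart and muscle, was lower in knockouts. It was at 0.0769, 0.0452 and 0.116 RPKM in knockouts and 0.705, 1.17 and 0.678 RPKM in controls. Behind these values stood 17, 9 and 33 reads in knockouts and 140, 300 and 129 in controls. All knockouts lay under all controls. The level was 10.7-fold lower in knockouts (log2 change -1.20, SE 0.18, adjusted p = 0.00809). The gene passed the 0.1 RPKM minimum through its control level alone, and its test is given with that limit. Kcnj2, the related Kir2.1 pore, was at 5.27, 5.86 and 4.32 RPKM in knockouts and 8.11, 3.20 and 2.12 RPKM in controls, and the groups overlapped.

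Kcnj5 (chromosome 9, 32314707 to 32344350) encodes Kir3.4, a pore gated by G proteins. It stood at 10.9, 8.74 and 15.4 RPKM in knockouts and 21.5, 30.6 and 20.8 RPKM in controls, so that every knockout was under every control. Its level was 2.08-fold lower in knockouts (log2 change -1.04, SE 0.23, adjusted p = 0.0310). The call was lost without any single library other than knockout replicate 3, with log2 changes of -1.14 to -0.86 and adjusted p-values of 0.0587 to 0.113. Kcnj3, the usual partner pore of Kir3.4, was under 0.12 RPKM in every library, and was not kept.

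Kcnu1 (chromosome 8, 25849623 to 25937939), the Slo3 pore known from sperm, was at 0.106, 0.0834 and 0.180 RPKM in knockouts and 0.746, 0.480 and 0.444 RPKM in controls. No knockout reached the lowest control. It was 4.52-fold lower in knockouts (log2 change -0.75, SE 0.16, adjusted p = 0.0269). Kcnmb2 (chromosome 3, 31902507 to 32200180), the inactivating beta 2 subunit of BK channels, was at 0.432, 0.361 and 0.488 RPKM in knockouts and 0.742, 1.55 and 1.07 RPKM in controls. The knockouts were close together and under all controls, a 2.62-fold difference (log2 change -0.78, SE 0.21, adjusted p = 0.050, just under the threshold). Without knockout replicate 1 or 2 or control replicate 1 or 2, Kcnu1 lost its call (log2 changes -0.80 to -0.63, adjusted p 0.0586 to 0.101). Kcnmb2 lost it without any single library except control replicate 1 (log2 changes -0.82 to -0.59, adjusted p 0.0736 to 0.177).

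Kcnt1, the sodium-activated pore Slack, was at 1.83, 1.07 and 2.07 RPKM in knockouts and 11.4, 2.69 and 2.56 RPKM in controls. The groups did not overlap, but control replicate 1 stood far above the other controls, and the log2 change of -1.21 (SE 0.52) did not pass (adjusted p = 0.165). Kcnd3, the Kv4.3 pore, was at 4.55, 2.90 and 3.91 RPKM in knockouts and 3.82, 9.48 and 7.80 RPKM in controls, where control replicate 1 lay within the knockout range. Its log2 change of -0.75 (SE 0.32, adjusted p = 0.168) became -1.11 without control replicate 1 (adjusted p = 0.0433). The antisense gene Kcnd3os, whose exons overlap those of Kcnd3, had a log2 change of -0.74 (adjusted p = 0.140). Podocyte markers were lower in the same knockout libraries in which Kcng2, Kcnj12, Kcnj5, Kcnu1 and Kcnmb2 were lower, with the sums given above. Their part in these results was not tested.

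Channels known from the tubule made up much of the top of the family, which also held Kcnj5 and Kcnd3, given above. Kcnj16 (chromosome 11, 110968033 to 111027968) encodes Kir5.1, which joins Kir4.1 in the basolateral membrane of the distal convoluted tubule. It had 121, 141 and 79.4 RPKM in knockouts and 47.7, 31.3 and 76.8 RPKM in controls. The lowest knockout was just above the highest control. The means were 114 ± 31.4 RPKM in knockouts and 51.9 ± 23.0 RPKM in controls (SD, n = 3 each), and the log2 change of 1.18 (SE 0.34) did not pass (adjusted p = 0.0639). It passed without knockout replicate 3 (1.42, adjusted p = 0.0454) and without control replicate 3 (1.51, adjusted p = 0.0377).

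Kcnj10 (chromosome 1, 172341210 to 172374085), the Kir4.1 partner itself, was higher in knockouts. It was at 14.4, 18.3 and 6.68 RPKM in knockouts and 3.53, 2.58 and 6.19 RPKM in controls. Again knockout replicate 3 and control replicate 3 lay close to each other. The level was 3.20-fold higher (log2 change 1.53, SE 0.41, adjusted p = 0.0498). The call was lost without any single library other than knockout replicate 3, with log2 changes of 1.24 to 1.84 and adjusted p-values of 0.0505 to 0.185. It was also lost with a pseudocount of 1, no filter, quantile normalization, median-of-ratios scaling, no trend or a replicate block. In all, 11 of 15 alternatives ended the call. The ratio of Kcnj10 to Kcnj16 was 0.119, 0.130 and 0.0841 in knockouts and 0.0740, 0.0826 and 0.0806 in controls.

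Kcnk1 (chromosome 8, 125995170 to 126030685), the K2P channel TWIK-1, had 17.2, 23.0 and 11.2 RPKM in knockouts and 5.82, 4.23 and 8.46 RPKM in controls. All knockouts were above all controls. The gene was 2.78-fold higher in knockouts (log2 change 1.40, SE 0.31, adjusted p = 0.0299). Without knockout replicate 1 or 2 or control replicate 1 or 2 the log2 change was 1.16 to 1.38 and did not pass (adjusted p 0.0771 to 0.114).

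Kcnq1, a pore that forms slow channels with the beta subunit Kcne1 in the heart and in the kidney's proximal tubule, was at 11.3, 12.9 and 5.08 RPKM in knockouts and 3.04, 1.46 and 4.38 RPKM in controls. Kcne1 was at 3.74, 6.07 and 1.67 RPKM in knockouts and 0.842, 0.543 and 1.5 RPKM in controls. For both genes the lowest knockout, replicate 3, was only slightly above the highest control, replicate 3. The log2 changes of 1.57 (SE 0.43, adjusted p = 0.0520) for Kcnq1 and 1.48 (SE 0.42, adjusted p = 0.060) for Kcne1 did not pass. Without knockout replicate 3 both did (1.96, adjusted p = 0.0238, and 1.91, adjusted p = 0.0195). Exons of the non-coding RNA Kcnq1ot1 lie opposite those of Kcnq1, and Kcnq1ot1 had a log2 change of -0.20.

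Kcnj1, which encodes ROMK, the secretory channel of the thick ascending limb and collecting duct, was at 52.7, 59.0 and 22.4 RPKM in knockouts and 17.7, 10.4 and 29.0 RPKM in controls. The groups overlapped through replicate 3 of each, and the log2 change of 1.21 (SE 0.45) did not pass (adjusted p = 0.121), though it did without knockout replicate 3 (1.64, adjusted p = 0.0391). Kcnj15, the Kir4.2 pore of the proximal tubule, was at 63.6, 79.4 and 53.1 RPKM in knockouts and 43.8, 33.5 and 49.8 RPKM in controls (log2 change 0.62, SE 0.20, adjusted p = 0.0840). Kcnk5, the acid-sensitive K2P channel TASK-2, was at 23.0, 36.3 and 20.2 RPKM in knockouts and 31.7, 16.8 and 35.7 RPKM in controls. For Kcnk5 the groups overlapped widely, with a log2 change of -0.06 (95% interval -0.80 to 0.69, adjusted p = 0.926). Kcnk6, the K2P channel TWIK-2, was at 3.98, 4.56 and 6.30 RPKM in knockouts and 3.94, 6.20 and 5.62 RPKM in controls (log2 change -0.08, 95% interval -0.61 to 0.45, adjusted p = 0.847).

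These genes shared an order of libraries within the groups. In 9 of the 60 members knockout replicate 2 was above replicate 1 and replicate 1 above replicate 3, while control replicate 3 was above replicate 1 and replicate 1 above replicate 2. The 9 were Kcnj16, Kcnj15, Kcnj1, Kcnk5, Kcnk1, Kcnj10, Kcnq1, Kcne1 and Kcne1l. This order was chosen after the values were seen, and 5.79% of all genes tested had it. Among the marker lists, the order held for 10 of 15 distal nephron markers (loop, distal tubule, collecting duct), Umod, Aqp2 and Scnn1b among them. It was found in 1 of 13 proximal tubule markers (Pck1), 2 of 9 parietal markers (Krt8 and Krt18), and 0 of the tested podocyte, endothelial, mesangial and leukocyte markers.

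The summed RPKM of the distal nephron markers was 2581, 2878 and 1094 in knockout replicates 1 to 3 and 949, 485 and 1365 in control replicates 1 to 3. Proximal tubule sums were 10526, 5489 and 4217 RPKM in knockouts and 8151, 4485 and 11660 RPKM in controls. The first list thus had the order of the 9 channel genes in both groups, and the second had it in controls only. The part of tubule RNA in the levels of these channel genes was not tested.

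**Figure D3:**
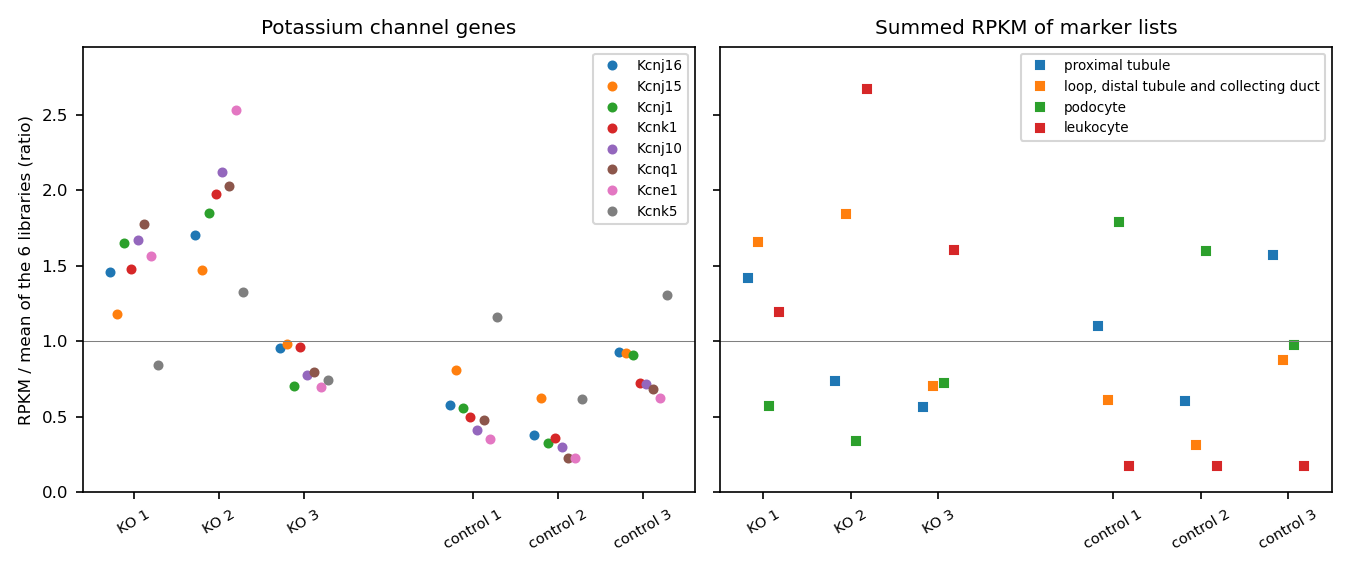
Left, RPKM of 8 channel genes in each library divided by the gene's mean over the 6 libraries (ratio, linear axis from 0), knockouts (KO) left of controls. Right, the summed RPKM of marker lists on the same scale, where the distal nephron sum is highest in knockout replicate 2 and lowest in control replicate 2, as are all 8 channel genes. The 8 genes have the library order that was chosen after the values were seen, so nothing is read from this match.

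Kcnn4 (chromosome 7, 24370263 to 24386690) encodes KCa3.1, a calcium-activated channel known from T cells, macrophages and fibroblasts. It was at 1.52, 3.20 and 2.70 RPKM in knockouts and 0.833, 0.458 and 0.429 RPKM in controls. All knockouts lay above all controls. The level was 4.31-fold higher in knockouts (log2 change 1.44, SE 0.27, adjusted p = 0.0166). The call was lost without knockout replicate 2 or control replicate 2 or 3 (log2 changes 1.26 to 1.37, adjusted p 0.0548 to 0.0659). Kcna3, the Kv1.3 pore of T cells, was at 0.191, 0.212 and 0.331 RPKM in knockouts and 0.0625, 0.174 and 0.0914 RPKM in controls. The groups did not overlap, but its log2 change of 0.29 did not pass (adjusted p = 0.230).

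Kcnh2 (chromosome 5, 24319589 to 24351604), the hERG pore of the heart, was at 0.429, 0.738 and 0.748 RPKM in knockouts and 0.222, 0.189 and 0.146 RPKM in controls. The knockouts were clear of the controls, at 82, 127 and 184 reads in knockouts and 38, 42 and 24 reads in controls. The level was 3.44-fold higher (log2 change 0.72, SE 0.17, adjusted p = 0.0336). Kcnh2 lost its call without any single library except knockout replicate 1 (log2 changes 0.65 to 0.76, adjusted p 0.0675 to 0.118) and under quantile normalization (adjusted p = 0.0845).

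Accessory subunits were among the higher genes too. Kcnab2 (chromosome 4, 152390742 to 152477871), the Kv beta 2 subunit, was at 1.48, 1.75 and 1.40 RPKM in knockouts and 0.612, 0.684 and 1.01 RPKM in controls. It was 2.01-fold higher (log2 change 0.70, SE 0.18, adjusted p = 0.0459). Kcne3 (chromosome 7, 100176502 to 100184869), a single-span beta subunit that keeps KCNQ1 channels open in the gut, was at 0.810, 1.07 and 1.13 RPKM in knockouts and 0.430, 0.587 and 0.419 RPKM in controls, a 2.10-fold difference (log2 change 0.62, SE 0.16, adjusted p = 0.0485). For both genes the groups did not overlap. The call of Kcnab2 was lost without any single library except control replicate 3 (log2 changes 0.61 to 0.75, adjusted p 0.0632 to 0.164), and under quantile normalization its log2 change was 0.34 (adjusted p = 0.258). That of Kcne3 was lost without each single library (0.56 to 0.71, adjusted p 0.0546 to 0.160) and was 0.27 under quantile normalization (adjusted p = 0.295). Leukocyte and parietal epithelial markers were higher in the same libraries as Kcnn4, Kcnh2, Kcnab2 and Kcne3, with the sums given above. Their part was not tested.

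By family, the inward rectifiers had 11 of 15 rows kept, with 1 higher, 2 lower and 8 not past the threshold. Among the lower rectifiers, Kcnj12 passed the 0.1 RPKM minimum through its control level alone. Of 9 K2P genes kept, 1 was higher and 0 lower. Over all genes tested 9.6% were higher and 3.22% lower, and nothing is read from the counts by family. The Kv1 to Kv4 pores had 8 of 17 rows kept and 0 called, although Kcnc2, the Kv3.2 pore, stood at 0.535, 1.01 and 0.319 RPKM in knockouts and 0.167, 0.0707 and 0.0663 RPKM in controls (log2 change 0.86, SE 0.23, adjusted p = 0.0531). Calcium- and sodium-activated Slo pores had 1 of 4 lower. Kcnma1, the BK pore of smooth muscle, was at 0.164, 0.244 and 0.193 RPKM in knockouts and 0.0785, 0.0729 and 0.0557 RPKM in controls, and its smooth muscle partner Kcnmb1 was at 1.46, 2.28 and 2.49 RPKM in knockouts and 0.593, 1.43 and 0.822 RPKM in controls. Neither passed (adjusted p = 0.156 for Kcnma1 and 0.0773 for Kcnmb1). Kcnma1 reached the 0.1 RPKM minimum through its knockout level alone, and its test is given with that limit. Kcnj8, the Kir6.1 pore of the ATP-sensitive channel of vascular muscle, had a log2 change of -0.22, and its regulatory subunit Abcc9 had -0.36 (adjusted p = 0.328).

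**Figure D4:**
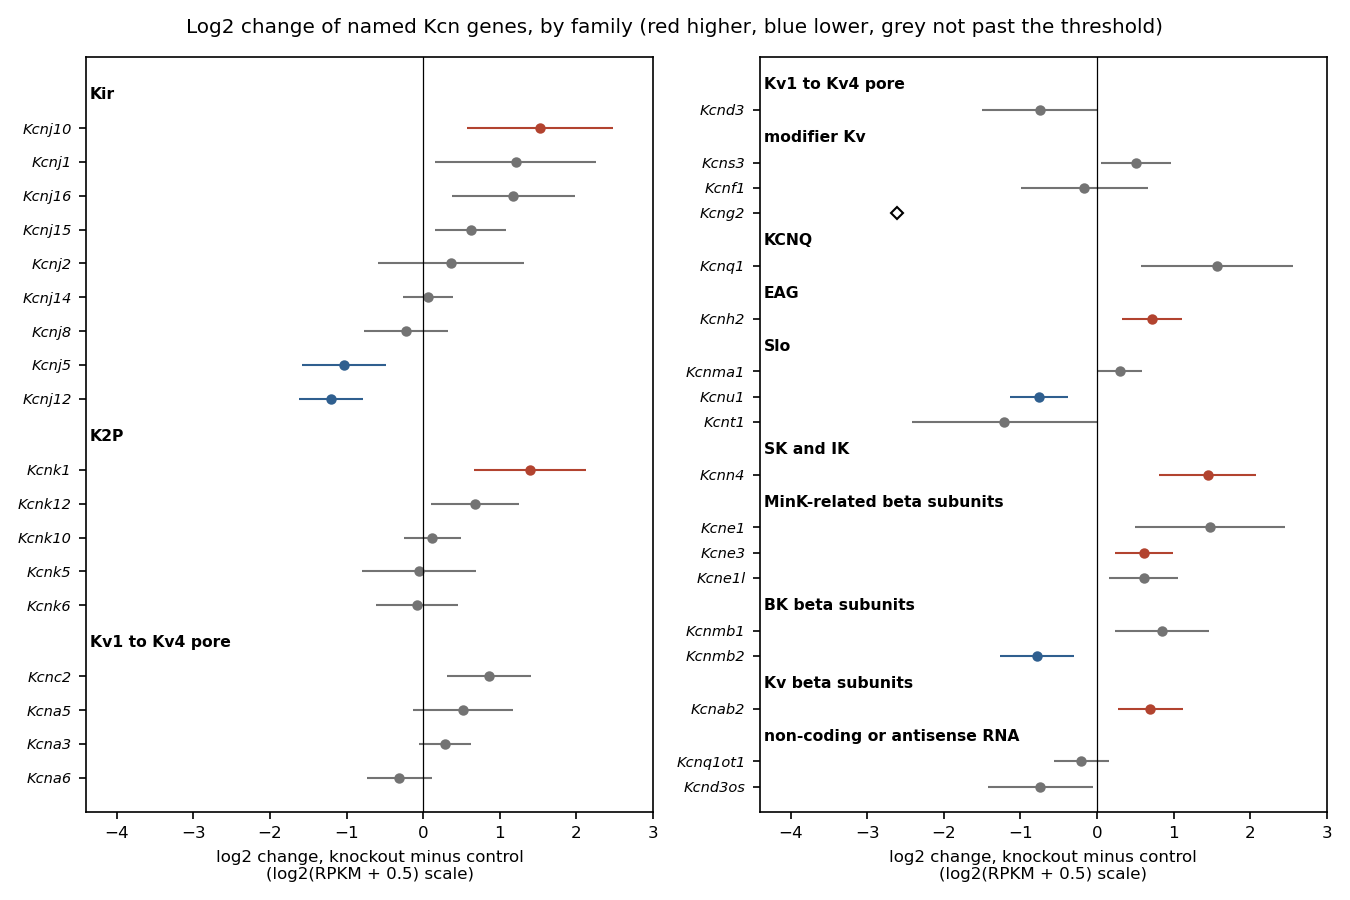
Log2 change, knockout minus control (x axis, log2(RPKM + 0.5) scale), of 36 kept genes named in the text, by family, with 95% intervals from limma. Red marks 6 of the 7 higher and blue the 4 lower members, grey those that did not pass, and the open diamond Kcng2, shown at -2.62 with no interval.

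Some members are neighbours in the genome. Kcnj1 and Kcnj5 lie 28.1 kb apart on opposite strands of chromosome 9, with log2 changes of 1.21 and -1.04. Kcnj16 and Kcnj2 lie 38.2 kb apart on the same strand of chromosome 11, with log2 changes of 1.18 and 0.36. Kcna5 and Kcna6 lie 173 kb apart on chromosome 6, with Kcna1, which was not kept, between them. Log2 changes of Kcna5 and Kcna6 were 0.52 and -0.31, neither past the threshold. Kcna6 reached the 0.1 RPKM minimum through its control level alone. The kept members sit on 19 chromosomes, and 25 of 60 have exons that overlap another gene's, 23 of them on the opposite strand. Among called members, exons of Gm16334 overlap those of Kcnab2 on the same strand. Exons of Gm45875 and Gm34821 lie opposite those of Kcnk1 and Kcne3.

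Upstream sequence was read from RefSeq (GRCm38.p6, the same assembly as mm10) for 44 of the 60 members. The motif CACCC, which Klf4 and its relatives can bind, was searched on both strands in the 250 bases before each gene's first listed start. At least 1 match was found in 36 of these 44 members (81.8%), in 57.7% of the tested genes that have an entry and in 51.3% of all genes in the table. The motif CCNCACCC, which contains CACCC, was found in 13 of 44 members (29.55%), against 18.2% of the tested genes. Median GC content of these 250 bases was 55.4% in members and 59.2% in tested genes. Among called members with an entry, 4 of 6 higher and 3 of 3 lower ones held CACCC. The lower ones include Kcnj12, which passed the 0.1 RPKM minimum through its control level alone. Its listed start lies inside the annotated gene. These counts rest on the first listed start, and 12 members had more than 1. Kcne3 held 0 matches at its first start and 3 at its second, while Kcnab2 held 2 at its first and 0 at later ones. For 55.6% of all entries the bases after the start lay in the first bases of an annotated transcript. The sequences of Kcnj5, of the lower members, and of Kcnn4, Kcnj10 and Kcnk1, of the higher ones, are shown as called members whose listed start lies near the start of the annotated gene. They run 5′ to 3′ on the gene's strand, with CACCC or its reverse complement in capitals. Kcnj5 is at chr9:32344345-32344594 on the minus strand, Kcnn4 at chr7:24370013-24370262, Kcnj10 at chr1:172340960-172341209 and Kcnk1 at chr8:125994852-125995101, all on the plus strand.
Kcnj5: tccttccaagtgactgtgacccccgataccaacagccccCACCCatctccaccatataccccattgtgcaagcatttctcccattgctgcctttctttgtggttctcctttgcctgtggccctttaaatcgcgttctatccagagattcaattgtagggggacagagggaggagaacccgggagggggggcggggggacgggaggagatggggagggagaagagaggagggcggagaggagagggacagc
Kcnn4: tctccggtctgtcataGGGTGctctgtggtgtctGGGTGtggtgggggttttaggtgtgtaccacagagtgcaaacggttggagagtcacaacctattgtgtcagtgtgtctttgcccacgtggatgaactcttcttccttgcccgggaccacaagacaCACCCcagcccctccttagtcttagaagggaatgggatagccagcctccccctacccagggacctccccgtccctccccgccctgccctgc
Kcnj10: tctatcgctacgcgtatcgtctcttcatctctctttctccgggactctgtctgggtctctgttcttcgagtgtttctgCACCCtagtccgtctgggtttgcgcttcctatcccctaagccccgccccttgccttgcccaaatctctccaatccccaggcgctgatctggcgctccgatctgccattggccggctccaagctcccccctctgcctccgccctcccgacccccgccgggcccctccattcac
Kcnk1: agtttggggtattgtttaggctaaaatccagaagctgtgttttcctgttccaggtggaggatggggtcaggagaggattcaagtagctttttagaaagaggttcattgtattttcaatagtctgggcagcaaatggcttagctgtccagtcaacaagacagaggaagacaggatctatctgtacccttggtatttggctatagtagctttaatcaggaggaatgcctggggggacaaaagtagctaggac
Kcnj5 and Kcnj10 each hold 1 match, Kcnn4 holds 3 and Kcnk1 holds 0, so both the lower gene and some higher genes carry it. A match is a stretch of letters and not a measured binding site.

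Channel partners and other genes of potassium transport were 48 genes whose symbols do not start with Kcn. Of 42 tested, 1 was lower (2.38%, against 3.22% of all genes tested) and 0 higher (against 9.6% of all genes). At an unadjusted p under 0.05 there were 10 higher (23.8%, against 21.7% of all genes) and 2 lower (4.76%, against 8.64%), and voom on the recovered reads called 2 higher. Atp1a4 and Atp12a, counted among the 10, passed the 0.1 RPKM minimum through their knockout level alone, so nothing is read from that share. The lower gene was Atp1b2, the beta 2 subunit of the sodium pump, at 55.6 ± 13.3 RPKM in knockouts and 101 ± 16.0 RPKM in controls (SD, n = 3 each; log2 change -0.87, SE 0.21, adjusted p = 0.0403). Leaving out any single library except knockout replicate 3 ended that call (adjusted p 0.0562 to 0.115). The commoner beta subunit Atp1b1 was at 616 ± 270 RPKM in knockouts and 240 ± 97.1 RPKM in controls (log2 change 1.32, SE 0.45) and did not pass (adjusted p = 0.0991). Atp1a4, the sperm alpha subunit, was at 0.246 ± 0.0312 RPKM in knockouts and 0.0448 ± 0.0187 RPKM in controls (log2 change 0.45, adjusted p = 0.0528). Atp12a, a hydrogen-potassium pump, was at 0.345 ± 0.211 RPKM in knockouts and 0.0238 ± 0.0263 RPKM in controls (log2 change 0.66, adjusted p = 0.0618). The tests of Atp1a4 and Atp12a are given with the limit that only their knockout level passed the minimum. Nedd4l, a ubiquitin ligase that acts on transport proteins, was at 9.90 ± 1.57 RPKM in knockouts and 6.41 ± 1.31 RPKM in controls (log2 change 0.59, adjusted p = 0.0766). Hcn3, a pacemaker channel pore, was at 0.685 ± 0.143 RPKM in knockouts and 0.319 ± 0.136 RPKM in controls (log2 change 0.54, adjusted p = 0.0935).

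At the 0.1 RPKM minimum, the members just inside were Kcna6, Kcnk10 and Kcnj14, with means of 0.128, 0.114 and 0.113 RPKM. Those just outside were Kcna7, Kcne2 and Kcnk13, with 0.0955, 0.0898 and 0.0843 RPKM. Kcnk13 had 9, 24 and 41 reads in knockouts and 1, 3 and 0 in controls, and was not tested. In 5 kept members 1 group had a mean under 0.1 RPKM, namely Kcnj12, Kcnk12, Kcnma1, Kcna6 and Kcnk10. Of the 37 rows under the minimum, 3 were at 0 in every library.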

How the data were processed

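RNA-seq values of 6 libraries of isolated mouse glomeruli were deposited by the authors as a table of RPKM per gene. The submitters' processing notes name FastQC, STAR, featureCounts, edgeR and the build mm10. Strand handling is not given in the sources used here. The 27 rows with a calendar date for a symbol (0.233% to 0.269% of reads per library) were left out, leaving 24035. Whole reads were recovered from the RPKM steps for 100% of rows (within 0.001 read), which gave the depths and the read counts. The recovered gene lengths are the smallest that fit.

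The 15913 genes whose mean reached 0.1 RPKM were tested with limma 3.58.1 (R 4.3.3) on log2(RPKM + 0.5), with an intensity trend, two-sided, and with Benjamini-Hochberg adjustment over all of them. The threshold was 0.05. limma was used because RPKM values are not counts; with 3 libraries a group, an exact permutation test of 1 gene cannot go below 0.1. The steps were tested on simulated data. Members and gene lists were chosen with earlier results of these data known. Named members were Kcng2, those past the threshold, the 10 of highest mean RPKM, the 5 largest rises and 5 largest falls without overlap, and the 3 on each side of the 0.1 RPKM minimum. Among partners they were those past the threshold and the 4 of smallest p. Members of the same complex or subfamily were added, and Kcna3, Kcnc2, Atp1b1 and the library order were chosen after their values were seen. Some members and partners are counted but not reported here by name. Coordinates came from GENCODE vM21 (GRCm38), and sequence from RefSeq. Alternatives were pseudocounts of 0.1 and 1, a minimum of 0.5 RPKM or none, quantile and median-of-ratios scaling, no trend, voom on recovered reads, a replicate block, and each library left out.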

Additional observations from a re-analysis of the deposited data

How the results depend on the processing

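Among the alternative values of 21 named members, 216 kept their direction and their side of the threshold, 79 kept the direction but no longer passed, 7 newly passed and 3 moved in size. The other 6 reversed, all of them small changes that did not pass. With single libraries left out, the log2 change of Kcnk5 was -0.38 to 0.15, above 0 without replicate 1 or 3 of either group (0.02, 0.11, 0.06 and 0.15), and that of Kcnk6 was -0.26 to 0.049, above 0 without knockout replicate 1 (0.049) or control replicate 2 (0.041). Kcng2 ranged from -4.04 to -2.03. All 79 lost calls were of members that passed in the main fit. The 216 also count members that passed in neither the main fit nor the alternative. Set against all values, the 79 therefore understate the share of calls lost. Counting the main fit, Kcnn4 was called in 12 of 16 settings, Kcnk1 in 10, Kcnj5 in 9 and Kcnmb2 in 7. Kcnj10 and Kcnab2 were called in 5 of 16 and Kcne3 in 3. Kcnj12 was called in 15 of 15 settings, Kcnu1 in 10 and Kcnh2 in 8. Kcnj12 passed the 0.1 RPKM minimum through its control level alone, and its count of settings does not lift that limit. The cause of the changes below was not tested.

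Members higher numbered 4 with a 0.5 RPKM minimum (32 members in the fit, Kcng2 not counted), 4 with no filter (93 members), 2 with quantile normalization, 4 with median-of-ratios scaling and 0 to 8 with single libraries left out, against 7. Members lower, likewise without Kcng2, numbered 1 with the 0.5 RPKM minimum, 2 with no filter and 1 to 3 with libraries left out, against 4. Partner genes higher numbered 2 with a pseudocount of 0.1, 1 with no filter, 1 with no trend, 2 with voom and 0 to 3 with libraries left out, against 0, and partner genes lower numbered 0 with no filter and 0 to 1 with libraries left out, against 1. All genes higher numbered 943 with quantile normalization and 570 to 1619 with libraries left out, against 1528. All genes lower numbered 337 with no filter, 873 with quantile normalization and 122 to 606 with libraries left out, against 512. The median log2 change of these members, 0.28, was 0.42 with a pseudocount of 0.1, 0.17 with 1, 0.39 with the 0.5 RPKM minimum, 0.055 with no filter, -0.027 with quantile normalization, 0.51 with voom and 0.15 to 0.27 with libraries left out. The median of all genes was 0.10, and -0.05 with quantile normalization.

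The replicate numbers share only a number: deviations of same-numbered libraries correlated at 0.158, -0.194 and -0.424. With the replicate block, members higher numbered 0 and lower 1, Kcng2 not counted, partner genes lower 0, and all genes 702 higher and 183 lower.

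Depth limits the genes under 1 RPKM, where a library can hold under 20 reads.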
